A study of Mus musculus with 24 samples.

Results

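Granins and the enzymes that turn peptide precursors into active peptides were followed here as a set of 10 genes in mouse hypothalamus: the granins Chga, Chgb and Scg2, the sorting protein gene Scg3, the convertases Pcsk1 and Pcsk2 with their partner genes Pcsk1n and Scg5, the carboxypeptidase gene Cpe and the amidating enzyme gene Pam. They were chosen by gene symbol as a pathway, with earlier results of these data known, and they are 10 of the 45706 genes in the count table. All 10 were measured well enough to be tested, with a median of 312.5 counts per library for Pcsk1 and of 2080 counts or more for each of the others. The RNA came from whole hypothalamus of diet-induced obese (DIO) male mice with a mean body weight of 53 g, housed in pairs. Daily injections over 5 days delivered PSD-95i, the compound UCCB01-147 at 25 mg/kg (8 libraries), PICK1i, the compound mPD5 at 56 mg/kg (8 libraries), or isotonic saline (8 libraries), and tissue was taken 2 h after the last one. Both compounds are peptide-based ligands of PDZ domains, aimed at the scaffold proteins PSD-95 and PICK1. The protocol gives 6 saline mice whereas the labels name 8 saline libraries, and no label ties a library to a mouse, so the p-values measure the spread between libraries. All groups were obese, so no lean control stands beside them.

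Neuropeptides are made as long precursors that enter dense-core vesicles together with granins, acidic proteins that condense the cargo. Inside the vesicle PC1/3 (from Pcsk1) and PC2 (from Pcsk2) cut the precursor at paired basic residues, carboxypeptidase E (Cpe) trims the basic residues left at the end, and PAM (Pam) amidates peptides that end in glycine. ProSAAS (Pcsk1n) inhibits PC1/3, and 7B2 (Scg5) helps proPC2 to mature. In the hypothalamus these steps yield the melanocortins and other peptides that act on feeding, and loss of PC1/3 in humans or of carboxypeptidase E in mice is known to cause obesity.

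Depth was 4762703 to 9228858 counts per library. In 2 saline libraries, replicates 2 and 3, the pituitary hormone gene Gh stood at 51984 and 32057 CPM (counts scaled to library size by TMM), against 0 to 40.9 CPM in the other 22. A list of 20 pituitary marker genes summed to 63182 and 39352 CPM in these 2 libraries and to 23.8 to 90.2 CPM elsewhere. In the other 22 libraries the markers Tshb, Pou1f1, Ghrhr, Gnrhr and Foxl2 stayed under 1 CPM in each library. None of 20 hypothalamic markers was under 1 CPM throughout, and their sum was 1241 to 1909 CPM in the 22. PICK1i replicates 1, 2, 5 and 6 also stood apart, with 13.5 to 16.6% of counts on mitochondrial genes against 7.88 to 11.2% in the other 20 libraries. The length tilt, the slope of a library's log2 deviations on log2 transcript length, was -0.17 to -0.10 in those 4 libraries and -0.02 to 0.09 in the other 20, so long transcripts were relatively low in the 4. The main counts of genes past the test are therefore given below with and without saline replicates 2 and 3. Levels in TPM, transcript shares and some of the fold changes are given without them.

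Expressed per transcript length (TPM), the 10 genes spanned a wide range of levels in the 22 libraries without saline replicates 2 and 3. Cpe was highest with a mean of 1450.0 TPM, followed by Pcsk1n at 1240.2 TPM, and the ranges of the pair overlapped. Scg2 (501 TPM), Chga (480.3 TPM) and Scg5 (442 TPM) came next, their ranges overlapping each other but not that of Pcsk1n. Chgb, whose range was clear of that of Scg5, had 344 TPM, Pam 253 TPM and Scg3 245 TPM, with overlap between neighbours in this order. The convertases were lowest: Pcsk2 had 111 TPM and Pcsk1 20.4 TPM, each range clear of its neighbours. Thus the mRNAs of the enzymes that make the first cut were below those of the vesicle proteins and of the trimming enzyme. In these 22 libraries the 10 genes held 0.514 to 0.636% of all counts.

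**Figure D1:**
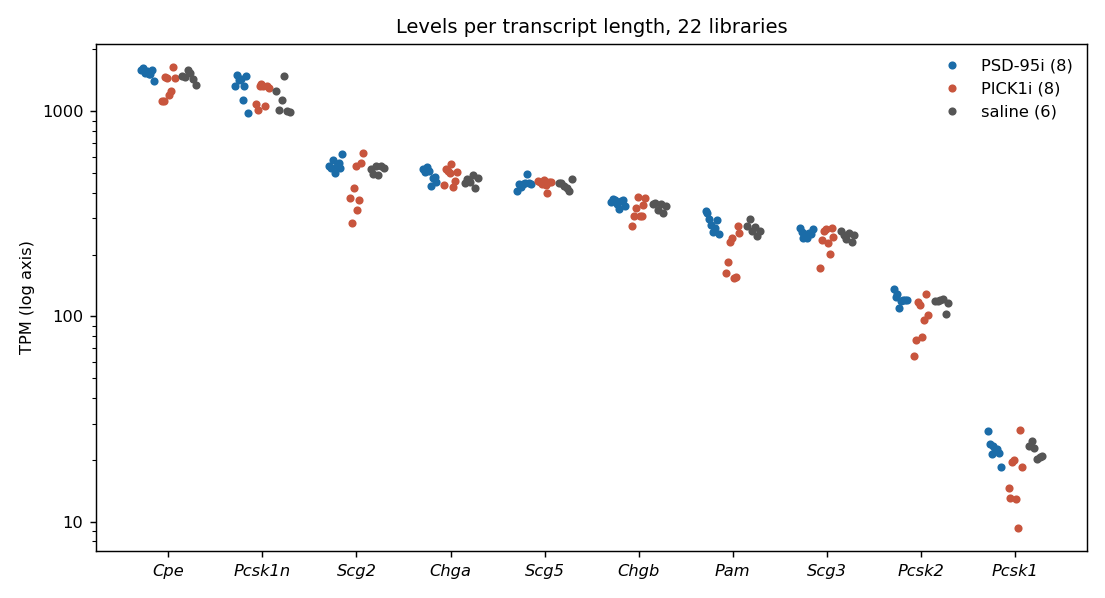
Level of each gene in TPM (log axis) in 22 libraries, with PSD-95i (8), PICK1i (8) and saline without replicates 2 and 3 (6) from left to right within each gene; a point is a library. Cpe and Pcsk1n lie highest and Pcsk1, at a mean of 20.4 TPM, lowest.

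Saline replicates 2 and 3 carried more granin and convertase RNA than any other library. The 10 genes took 1.12 and 1.07% of their counts. Chgb, chromogranin B, stood at 3674 and 3607 CPM in the 2 libraries, against 451 to 543 CPM in the other 22, and their mean was 7.57 times that of the 6 other saline libraries. Chga, chromogranin A, had 1385 and 1524 CPM against 413 to 604 CPM, a ratio of 3.31 to the 6 saline libraries. Both chromogranins therefore lay outside the range of every other library, Chgb by the larger factor.

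The convertase Pcsk1 had 142 and 100.3 CPM in saline replicates 2 and 3, against 21.7 to 50.9 CPM in the other 22 libraries (ratio 2.88). Scg2, the precursor of secretoneurin, had 1262 and 1356 CPM against 411 to 803 CPM (ratio 2.01). Scg5 and Pcsk2, the 7B2 and PC2 pair, were at ratios of 1.98 and 1.70, and Scg3, which tethers granins to the vesicle membrane, at 1.28. These 5 genes also lay above all 22 other libraries in both. Pam, at 374 and 413 CPM, and Pcsk1n, at 1553 and 1169 CPM, fell at least partly within the range of the rest, and Cpe, at 1388 and 1297 CPM, was below all 22. Of all genes tested, 12.8% were above the 22 in both of these libraries and 10.4% below, while 7 of the 10 genes were above and 1 below. The pituitary markers that move with these values are given above, and their part in them was not tested.

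The 4 genes with the highest ratios were also compared by the DNA before their RefSeq start sites, shown here because 3 of them hold the same palindrome there. The sequences are RefSeq promoters of build GRCm38.p6 as tabulated for 9 of the 10 genes, cut to the 110 bases before the start site, 5′ to 3′ on the gene's strand, and capitals mark TGACGTCA, the full cAMP response element, or its TGACGT part. They lie at chr2:132781532-132781641 (plus strand, Chgb), chr12:102554831-102554940 (plus, Chga), chr13:75089747-75089856 (plus, Pcsk1) and chr1:79440027-79440136 (minus, Scg2).
Chgb promoter: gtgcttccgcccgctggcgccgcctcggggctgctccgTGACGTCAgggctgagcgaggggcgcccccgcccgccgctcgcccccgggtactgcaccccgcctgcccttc
Chga promoter: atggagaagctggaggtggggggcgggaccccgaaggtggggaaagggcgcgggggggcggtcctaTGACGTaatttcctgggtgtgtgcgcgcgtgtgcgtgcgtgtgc
Pcsk1 promoter: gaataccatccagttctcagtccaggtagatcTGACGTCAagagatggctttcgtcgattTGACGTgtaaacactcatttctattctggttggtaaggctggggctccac
Scg2 promoter: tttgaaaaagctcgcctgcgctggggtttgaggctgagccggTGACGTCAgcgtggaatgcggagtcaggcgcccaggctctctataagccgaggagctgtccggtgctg

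The palindrome TGACGTCA begins 72 bases before the RefSeq start in Chgb, 78 in Pcsk1 and 68 in Scg2. The GENCODE starts differ, at position 132781278 for Chgb and 79440120 for Scg2. By that annotation the palindromes of Chgb and Scg2 lie after the start, inside the gene. Positions in this paragraph are from the RefSeq starts. Searched on both strands over the whole window of 300 bases, it occurs in 1.79% of the 32851 promoters in the table, for 2.03% of the genes there, and in 3 of the 9 genes of the set with an entry. The shorter TGACGT, which the palindrome contains on each strand, occurs in 7.51% of promoters, for 8.37% of genes, and in 5 of the 9. Chga has it 44 bases before its start, and Scg5 holds it at 175 bases before the start and again after it. It was not found in the windows of Pam, Pcsk2, Scg3 or Pcsk1n. Among mRNAs for the CREB family (Creb1, Crem and Atf1), which binds such elements, its coactivators (Crtc1 and Crtc2) and the REST complex (Rest and Rcor1), 0 of 7 passed the test in any of the 3 comparisons by edgeR, with or without saline replicates 2 and 3. With all libraries 0 of these 7 had an unadjusted p under 0.05 for PSD-95i against saline and 1 in each of the other comparisons, the co-repressor gene Rcor1, at -0.22 ± 0.08 (adjusted p = 0.0903) for PICK1i against saline and 0.24 ± 0.08 (0.0974) between the compounds. Without saline replicates 2 and 3 such a p was found for 3 of the 7 between the compounds, for 0 after PSD-95i and for 1 after PICK1i, each relative to saline. These tests compare the groups and do not address saline replicates 2 and 3. A motif match is a feature of the sequence and was not measured as binding. Scg5, the next gene by ratio at 1.98, holds TGACGT but not the full palindrome. The GC box GGGCGG, searched the same way, occurs in 7 of the 9 and for 38.2% of genes. The part of any motif in the values of saline replicates 2 and 3 was not tested.

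**Figure D2:**
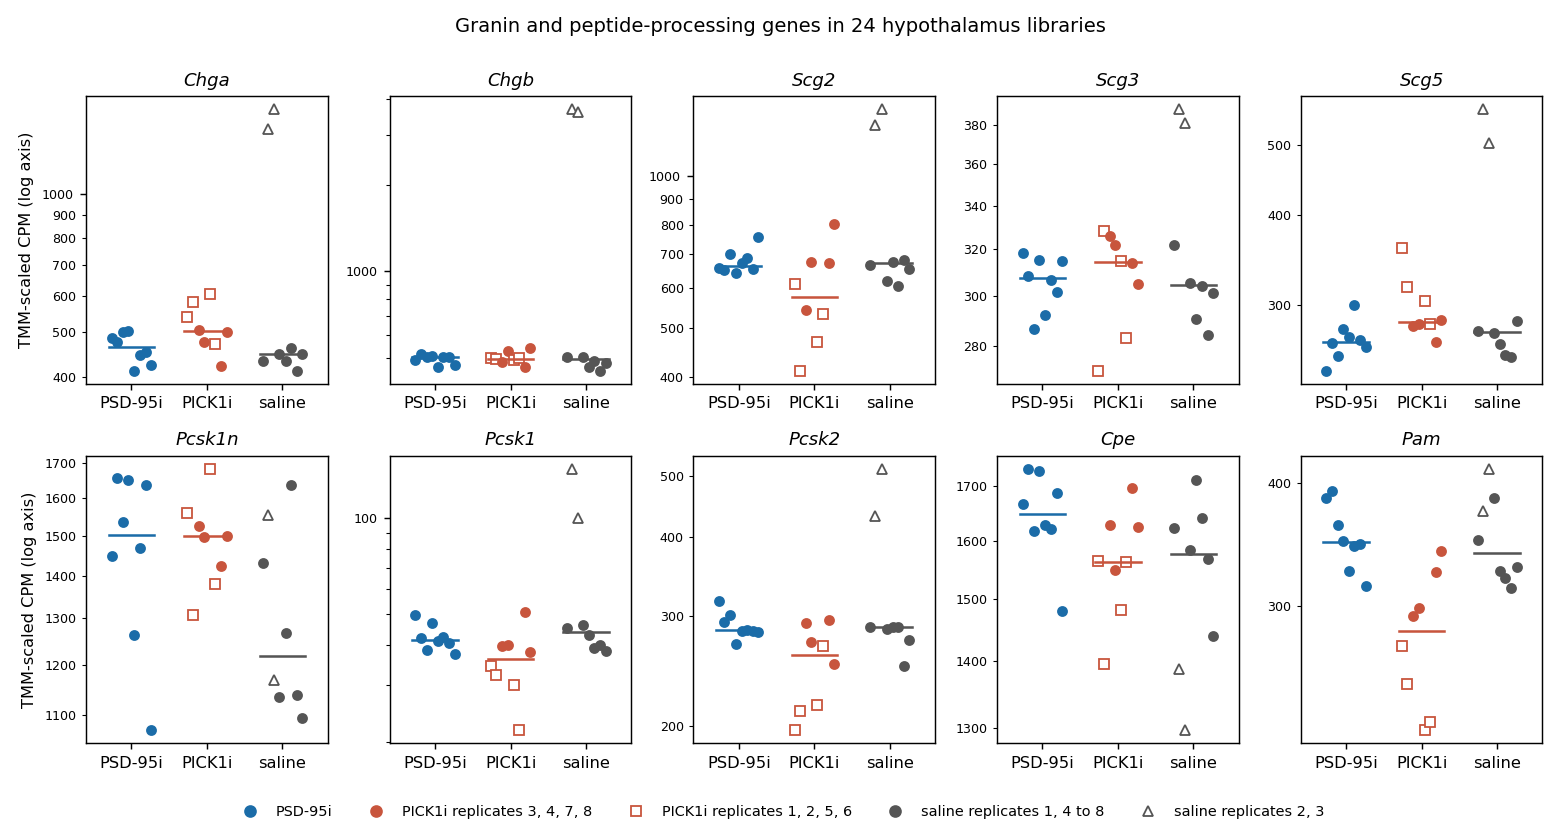
CPM of each gene in every library (log axes that do not start at 0) for PSD-95i, PICK1i and saline, with lines at group medians; triangles are saline replicates 2 and 3 and squares are PICK1i replicates 1, 2, 5 and 6. The triangles stand alone for Chgb, Chga, Scg2, Scg3, Scg5, Pcsk1 and Pcsk2, and the squares form the low end of the PICK1i group for Pam and Pcsk1.

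The first question was whether inhibiting PSD-95 changed these genes relative to saline. With all 24 libraries in one edgeR quasi-likelihood fit, 0 of 15667 genes passed an adjusted p of 0.05 (percent called 0.0), and so none of the 10 did. At an unadjusted p under 0.05 there were 1719 genes, among them 4 of the 10, and DESeq2 also called 0 genes. Chgb showed the biggest difference of the 10, with a log2 fold change of -1.36 ± 0.39 (SE; adjusted p = 0.341). Its values did not separate the groups. Chgb had 466, 502 and 515 CPM (lowest, median and highest of 8) after PSD-95i, against 451, 484 and 503 CPM in the 6 saline libraries other than replicates 2 and 3. Without replicates 2 and 3 its log2 fold change was 0.04 ± 0.04, and the 2 groups overlapped almost wholly.

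In that fit of 22 libraries 0 of 15820 genes passed for PSD-95i against saline, and 388 had an unadjusted p under 0.05, none of them among the 10. Log2 fold changes ran from -0.01 for Scg5 to 0.19 ± 0.09 for Pcsk1n, and 9 of the 10 were above 0. Pcsk1n had 1072, 1502 and 1657 CPM after PSD-95i and 1094, 1204 and 1636 CPM in the 6 saline libraries. The PSD-95i median was higher, but each group spanned nearly the same range. For the convertases the estimates were 0.01 ± 0.11 for Pcsk1 and 0.05 ± 0.08 for Pcsk2. A difference of the size of these errors or smaller was not detectable with these libraries, and larger estimates also went uncalled. Pcsk1n at 0.19 ± 0.09 was one, and Pam at -0.28 ± 0.08 for PICK1i against saline in the same fit another.

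**Figure D3:**
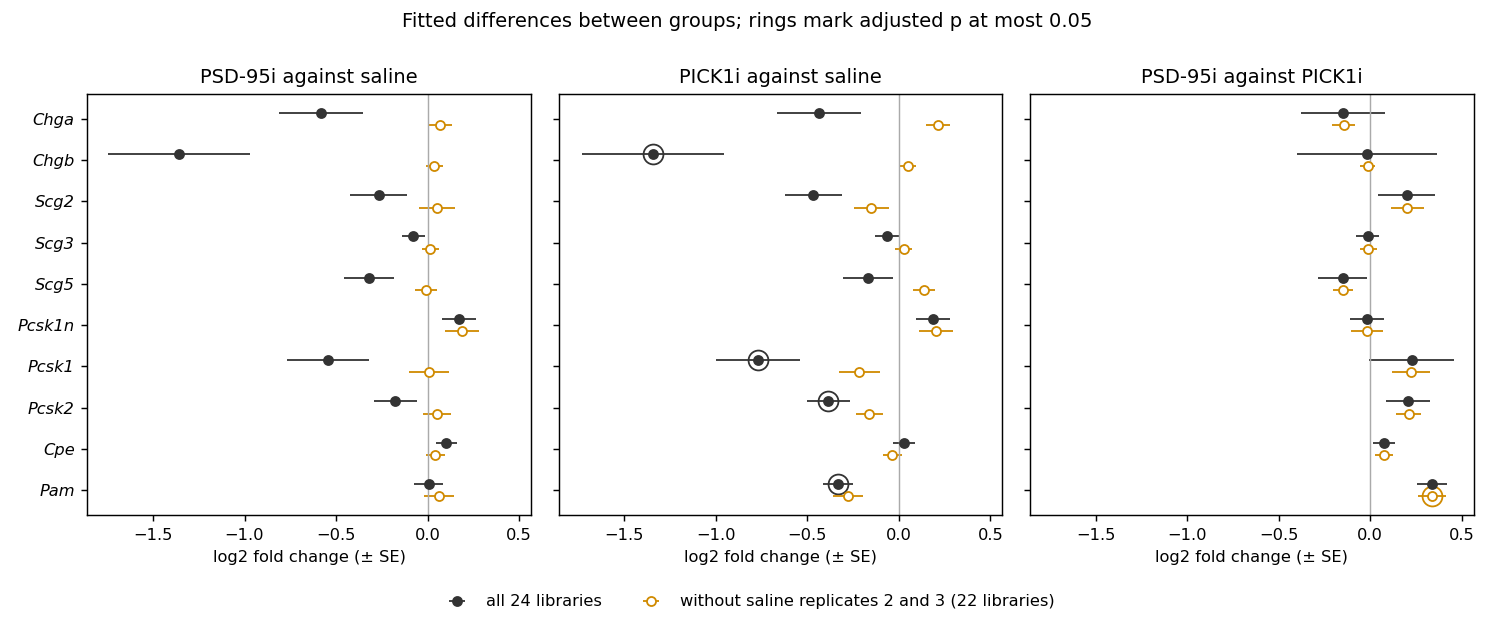
Log2 fold change with its standard error for the 10 genes in the 3 comparisons, from all 24 libraries (dark) and from the 22 without saline replicates 2 and 3 (open), with rings at an adjusted p of at most 0.05. In PICK1i against saline the 4 ringed dark points, Chgb, Pcsk1, Pcsk2 and Pam, have no ringed open counterpart, and the single open ring is Pam in PSD-95i against PICK1i.

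The second question was whether inhibiting PICK1 changed them. With all 24 libraries 4 of the 10 genes fell after PICK1i relative to saline, where 4.27% of all genes tested were called lower, 4.88% higher and 9.15% in either direction. They were Chgb (log2 fold change -1.34 ± 0.39, adjusted p = 0.0335), Pcsk1 (-0.77 ± 0.23, 0.0360), Pcsk2 (-0.38 ± 0.12, 0.0420) and Pam (-0.33 ± 0.08, 0.0215), by edgeR's quasi-likelihood test with Benjamini-Hochberg adjustment. The median log2 fold change of the 10 was -0.36, against -0.01 over all genes tested. None of the 4 calls was made without saline replicates 2 and 3, when 5 of 15820 genes passed (0.0316%; 0.0253% higher and 0.00632% lower) and 3839 had an unadjusted p under 0.05, nor with only these 2 groups in the fit (adjusted p of 0.0930 to 0.122), with weights per library in limma-voom or without PICK1i replicates 1, 2, 5 and 6. Leaving out 1 library, either of saline replicates 2 and 3 or any one of PICK1i replicates 1, 2, 5 and 6, also ended the calls on Chgb, Pcsk1 and Pcsk2, PICK1i replicate 8 ended that on Pcsk2, and PICK1i replicate 5 that on Pam, with adjusted p of 0.0507 to 0.101. The comparison with PSD-95i above shares the saline libraries.

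Without saline replicates 2 and 3 no granin passed in PICK1i against saline. Chga had 422, 503 and 604 CPM after PICK1i, against 413, 441 and 463 CPM in the 6 saline libraries. In 7 of the 8 PICK1i libraries Chga was above every one of these 6. Its log2 fold change was 0.21 ± 0.07 (adjusted p = 0.0787), where it was -0.44 ± 0.23 with all libraries. Of 14 fits that each left out 1 further library, Chga passed in 2, without PICK1i replicate 4 or 7 (adjusted p = 0.0474 and 0.0119). Elsewhere the adjusted p reached 0.174. Chgb was at 466, 497 and 543 CPM after PICK1i and 451, 484 and 503 CPM in saline, with a log2 fold change of 0.05 ± 0.05. The 2 groups overlapped for Chgb, which had the lowest fold change of the 10 in the full set.

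Scg2 had 411, 577 and 803 CPM after PICK1i, against 606, 661 and 682 CPM in the 6 saline libraries. It spread most among the granins: 4 PICK1i libraries were below all 6 saline libraries and 1 was above. The log2 fold change was -0.15 ± 0.10 (adjusted p = 0.347), and -0.47 ± 0.15 (0.0539) with all libraries, when it passed in 8 of 16 fits that each left out 1 library. Scg3 had 270.5, 314 and 328 CPM after PICK1i and 284, 303 and 322 CPM in saline, a log2 fold change of 0.03 ± 0.05. It was among the steadiest of the 10, with a coefficient of variation of 5.05% over the 22 libraries, next to 4.38% for Chgb and 16.3% for Pcsk1.

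Among the convertases and their partners, Pcsk1 had 21.7, 36.3 and 50.9 CPM after PICK1i, against 38.4, 41.5 and 46.4 CPM in the 6 saline libraries. In 5 PICK1i libraries it was below every saline library, and in 1 it was above. The log2 fold change was -0.22 ± 0.11 (adjusted p = 0.233). Pcsk1 passed in 1 of 14 fits without 1 further library, where PICK1i replicate 7, its highest library, was left out (-0.31, adjusted p = 0.0358). In the others the adjusted p reached 0.392. Its inhibitor gene Pcsk1n had 1309, 1498 and 1683 CPM after PICK1i against 1094, 1204 and 1636 CPM in saline. All 8 PICK1i values were above the saline median, yet the ranges overlapped and the log2 fold change of 0.20 ± 0.09 had an adjusted p of 0.187.

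Pcsk2 had 197, 259.6 and 296 CPM after PICK1i, against 249, 287 and 288 CPM in the 6 saline libraries. The lower end of the PICK1i range lay well below saline, in 3 libraries, and 2 libraries were above all saline values. The log2 fold change was -0.16 ± 0.08 (adjusted p = 0.191). Scg5, whose product chaperones proPC2, had 267, 285 and 359.7 CPM after PICK1i against 254, 269.9 and 285 CPM in saline. Its estimate had the opposite sign to that of Pcsk2: 4 of 8 PICK1i libraries were above all 6 saline libraries and none was below, at 0.14 ± 0.06 (adjusted p = 0.156).

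For the trimming enzyme Cpe, values were 1395, 1563 and 1697 CPM after PICK1i and 1439, 1603 and 1712 CPM in the 6 saline libraries. The groups overlapped over most of their range, with a log2 fold change of -0.04 ± 0.05. Pam, the amidating enzyme, had 224, 283 and 341 CPM after PICK1i, against 313, 327 and 386 CPM in saline. In 6 of 8 PICK1i libraries it was below every one of the 6 saline libraries. The log2 fold change was -0.28 ± 0.08 with an adjusted p of 0.0737. Pam passed in 2 of 14 fits without 1 further library, those without PICK1i replicate 4 or 7 (adjusted p = 0.0419 and 0.0153). In the others the adjusted p reached 0.162. For none of the 10 were PICK1i and saline, or any other pair of groups, wholly apart over the 22 libraries. Of all genes tested, 0.191% were wholly higher and 0.16% wholly lower after PICK1i than in saline, 0.0511% and 0.0191% after PSD-95i than in saline, and 0.0255% each way after PSD-95i against PICK1i. In RNA from a whole tissue, fewer cells that express a gene and less RNA per cell cannot be told apart.

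The third comparison set the 2 compounds against each other at their unequal doses. With all 24 libraries 0 of 15667 genes passed in edgeR (percent called 0.0), 3789 had an unadjusted p under 0.05, and DESeq2 called 1336 genes (4.76%), 1 of them among the 10. That gene was Pam, whose adjusted p in edgeR was 0.0513. Without saline replicates 2 and 3, which enter this comparison only through the shared spread, filter and scaling, 654 genes (4.13%) were higher and 554 (3.5%) lower after PSD-95i than after PICK1i, 7.64% in all. Pam was the only one of the 10 to pass. The count moved with single libraries. Without any one of PSD-95i replicates 1, 2, 5 and 7 and PICK1i replicates 1, 2, 5 and 6 it was 1 to 4 genes. It was 550 genes without PSD-95i replicate 3, 1867 without PICK1i replicate 3, 2405 without PICK1i replicate 4 and 3451 without PICK1i replicate 7. It was 0 genes without PICK1i replicates 1, 2, 5 and 6 together and with the length tilt as a covariate.

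Pam had 314, 348 and 392 CPM after PSD-95i, against 224, 283 and 341 CPM after PICK1i. In 6 of 8 PSD-95i libraries it was above all 8 PICK1i libraries, though the groups still touched. The log2 fold change was 0.34 ± 0.08 (adjusted p = 0.0324, edgeR). Of 16 fits that each left out 1 further library, 8 kept an adjusted p of at most 0.05, the range being 0.00258 to 0.0899. It was lost without PSD-95i replicate 1, 2, 5 or 7 or without PICK1i replicate 1, 2, 5 or 6, and without all 4 of these PICK1i libraries the log2 fold change was 0.17 (adjusted p = 0.797).

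The other 9 genes did not pass with these 22 libraries. Pcsk2 had 270.5, 284 and 317 CPM after PSD-95i and 197, 259.6 and 296 CPM after PICK1i, so that every PSD-95i library was above the PICK1i median (log2 fold change 0.21 ± 0.07, adjusted p = 0.0588). Scg5 had 244, 267 and 300.1 CPM after PSD-95i and 267, 285 and 359.7 CPM after PICK1i, with 4 PSD-95i libraries below all PICK1i libraries (-0.15 ± 0.06, adjusted p = 0.0873). The estimates for Pcsk2 and its chaperone gene had opposite signs, neither past the threshold. Scg2 was at 0.20 ± 0.09, Pcsk1 at 0.23 ± 0.10 and Chga at -0.15 ± 0.06, with adjusted p of 0.142, 0.152 and 0.126, while Cpe was at 0.08 ± 0.05 and Scg3, Chgb and Pcsk1n were nearer to 0. With 1 more PICK1i library left out Pcsk2 passed (without replicate 3, 4 or 7, adjusted p = 0.0307, 0.0361 and 0.0122), without replicate 7 so did Pcsk1 (0.0168), Chga (0.0255) and Scg5 (0.0311), and without replicate 8 so did Scg2 (0.0370). These are 3 of 16 fits without 1 further library for Pcsk2 and 1 of 16 for each of the others.

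Within the PICK1i group Pam and Pcsk1 split with PICK1i replicates 1, 2, 5 and 6, the libraries with high mitochondrial share. Pam was at 224 to 273 CPM in these 4 and at 293 to 341 CPM in the other 4. Pcsk1 was at 21.7 to 34.5 CPM in the 4 and 38.1 to 50.9 CPM in the others. Neither gene overlapped between the 2 sets of PICK1i libraries, whereas the other 8 genes did. Of all genes tested, 11.1% were wholly lower in these 4 and 9.45% wholly higher. The 2 of the 10 genes, both lower, are thus near the share of all genes that did not overlap in either direction. In the 4 libraries 10 astrocyte markers summed to 2779 to 2918 CPM, below all PSD-95i libraries (from 3134 CPM) and the 6 saline libraries (from 3107 CPM), and 7 choroid plexus markers to 55.4 to 80.9 CPM, also below PSD-95i (from 82.3 CPM) and saline (from 89.0 CPM). Their 10 oligodendrocyte markers summed to 7029 to 10412 CPM, where PSD-95i libraries reached 6813 CPM and the 6 saline libraries 7574 CPM, so that they overlapped saline. Over 12 neuron markers the 4 had 6635 to 8154 CPM, not below PSD-95i (6386 to 6964 CPM) or the 6 saline libraries (6224 to 6727 CPM). Sums of microglia and of endothelium markers in the 4 overlapped those of both groups. Replicate 6 had 1065 CPM over 12 markers of cortex and hippocampus and the lowest sum of 10 tanycyte and ependymal markers in its group, 53.8 CPM, while PSD-95i libraries had 235 to 303 CPM and 146 to 219 CPM on these lists. The part of these markers and of the mitochondrial share in the values was not tested.

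Transcript length was measured against the same libraries. Relative to the other 4 PICK1i libraries Pcsk1, Scg2, Pam and Pcsk2 were lowest in the 4, and Scg5 and Chga were higher. Pcsk2, Pcsk1 and Pam have the longest mean transcripts of the 10, at 4712, 4565 and 3397 bases, while Scg2 has 2456 bases. Chgb is longer than Scg2, at 2740 bases, yet averaged 497 CPM in the 4 and 505 CPM in the others, where Scg2 averaged 506 and 673 CPM. Scg3 (2384 bases) averaged 299 and 317 CPM, Pcsk1n (2193 bases) 1483 and 1486 CPM and Cpe (2117 bases) 1501 and 1624 CPM. Scg5 has the shortest, at 1205 bases, followed by Chga at 1883 bases. With the length tilt as a covariate in the 22-library fit, a setting added after seeing the data, Pam in PSD-95i against PICK1i was 0.17 ± 0.07 (adjusted p = 1.00). In the same fit Pcsk2 was 0.01 ± 0.05, Pcsk1 was 0.00 ± 0.10 and Scg5 was -0.01 ± 0.05. For PICK1i against saline that fit gave Pam -0.13 ± 0.08, Pcsk2 0.02 ± 0.05, Pcsk1 -0.01 ± 0.10 and Chga 0.09 ± 0.06. The tilt separates the 4 PICK1i libraries from all others, so within this design the covariate and those libraries cannot be told apart.

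Across the 18 libraries without saline replicates 2 and 3 and without PICK1i replicates 1, 2, 5 and 6, the tilt was related to Pcsk2 (Pearson r = 0.73, Spearman rho = 0.60) and to Scg5 (r = -0.66, rho = -0.61). By two-sided permutation with 100000 resamples, adjusted over the 10 genes, the p-values were 0.0079 and 0.0498 for Pcsk2 and 0.0170 and 0.0498 for Scg5. Libraries of the 3 groups were pooled and permuted freely, so differences between groups are not separated from the tilt here. The tilt is itself a slope on transcript length, and Pcsk2 and Scg5 have the longest and shortest mean transcripts of the 10. Only the 10 genes were tested in this way, so no share of all genes stands beside these p-values. They do not show a relation particular to these genes. Without the 2 libraries farthest from the median tilt, r was 0.48 for Pcsk2 and -0.47 for Scg5, so both relations rest in part on those libraries. Pam (r = 0.34, rho = 0.31) and Pcsk1 (r = 0.47, rho = 0.38) had adjusted p of 0.418 and 0.165 for r and of 0.433 and 0.385 for rho. The remaining 6 genes had an adjusted p for r of 0.418 or more.

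**Figure D4:**
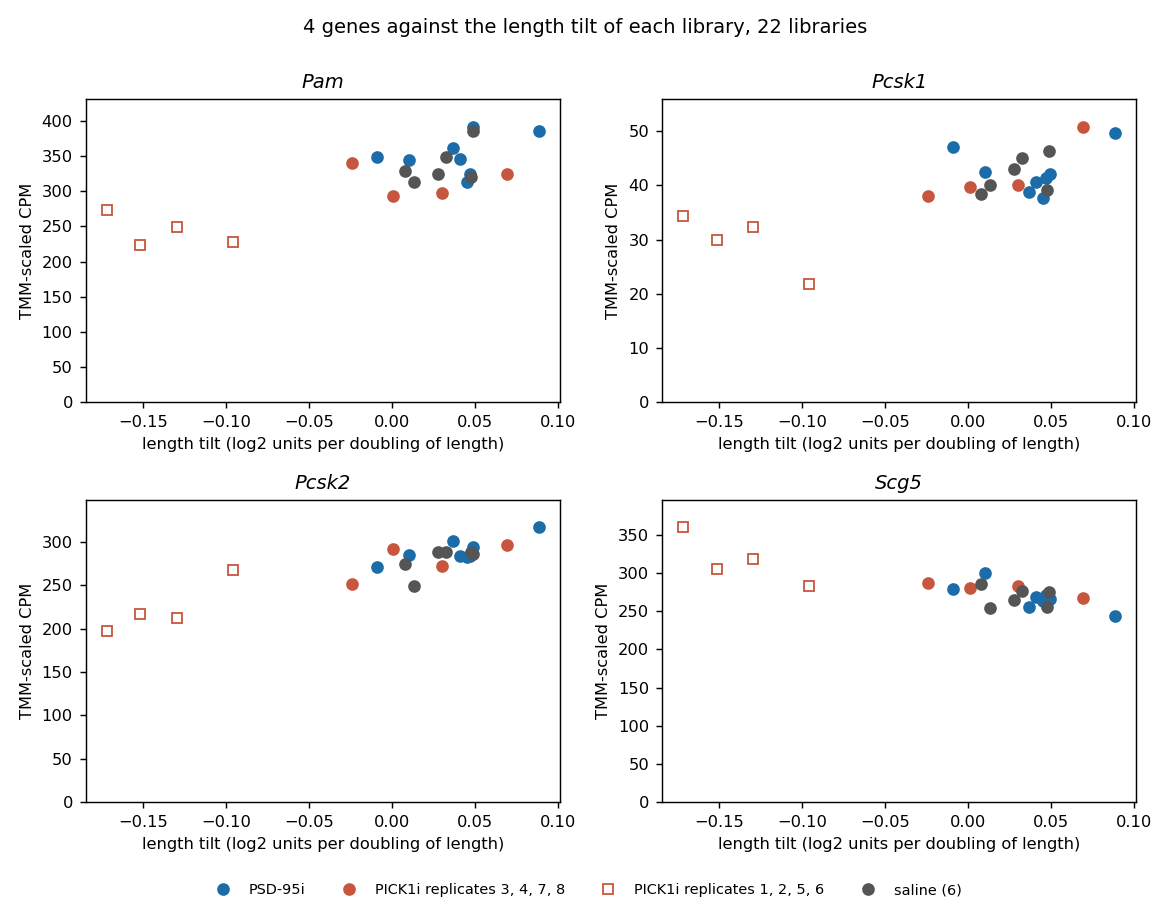
CPM of Pam, Pcsk1, Pcsk2 and Scg5 against the length tilt of each library (log2 units per doubling of transcript length) in 22 libraries; squares are PICK1i replicates 1, 2, 5 and 6, filled points all others. The squares lie at tilts of -0.17 to -0.10, with Pam at 224 to 273 CPM there.

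At the transcript level Pam is the most varied of the 10, with 15 annotated transcripts in the table, all detected. Pam-210 took 46.7 ± 1.12% of Pam counts after PSD-95i, 49.9 ± 3.77% after PICK1i and 48.6 ± 0.846% in the 6 saline libraries (SD; n = 8, 8 and 6). Pam-201 followed with 24.04 ± 0.685%, 21.4 ± 2.66% and 23.1 ± 1.19%, and Pam-202 with 14.3 ± 1.34%, 14.4 ± 2.85% and 13.4 ± 1.67%. The order of the 3 was the same in each group mean, and the spread was widest after PICK1i.

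Pam-201 and Pam-202 contain an exon of 318 bases, the 15th of Pam-201 (chr1:97864203-97864520, minus strand, GRCm38), that Pam-210 skips. The joins are shown because they differ between Pam-201 and Pam-210, which are also annotated from different start sites. They give 15 bases on either side from the GENCODE M21 transcripts, with the bases of the exon in capitals.
Pam-201 entry: aagccttcgagcaggGTGATTTCTATTCAC
Pam-201 exit: CAGAACTCGCAGGAGatttccatgtggaag
Pam-210 skip: aagccttcgagcaggatttccatgtggaag

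Of the counts on these 3 transcripts, those with the exon made up 43.6 to 47.8% after PSD-95i, 36.0 to 47.9% after PICK1i and 41.9 to 44.4% in the 6 saline libraries, with means of 45.1%, 41.8% and 42.9%. With saline replicates 2 and 3 included, the saline range was 40.8 to 48.6% and the mean 43.3%. PSD-95i and PICK1i overlapped in this share, PICK1i reaching lower. Pam-210 is also annotated from a start site 118366 bases downstream of that of Pam-201, so the share reflects start and splicing together, as assigned by the authors' quantification. Both Pam-201 (log2 fold change 0.47 ± 0.11, adjusted p = 0.0554) and Pam-210 (0.25 ± 0.08, 0.0686) were on the same side of 0 in PSD-95i against PICK1i without saline replicates 2 and 3, and neither passed over all transcripts.

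**Figure D5:**
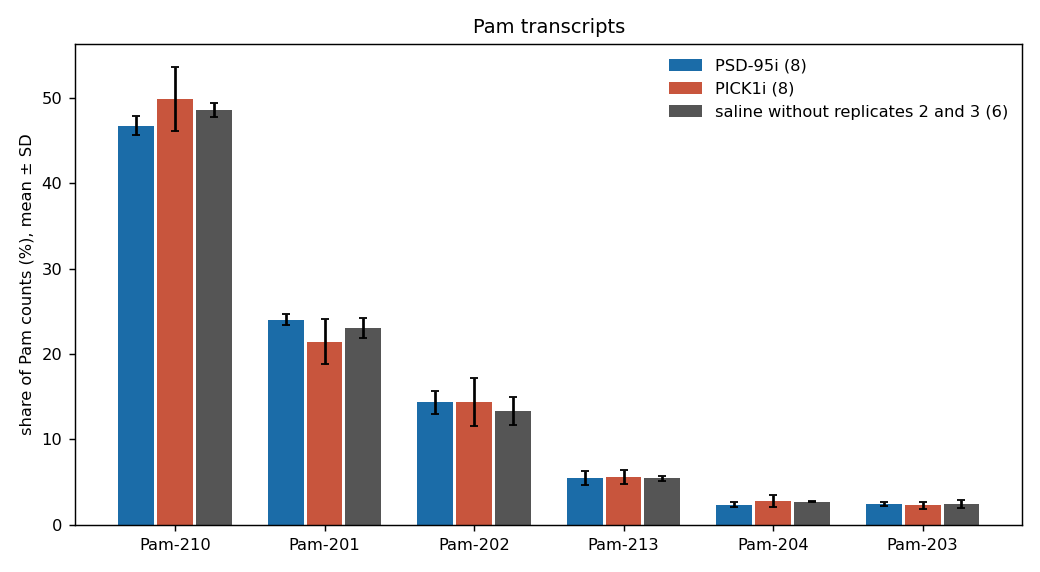
Share of Pam counts (%) on its 6 most abundant transcripts, mean with SD, for PSD-95i (8), PICK1i (8) and the 6 saline libraries without replicates 2 and 3. Pam-210 is the most abundant form in each group, at 46.7, 49.9 and 48.6%.

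Of 22 transcripts of the 10 genes that were tested, 2 passed in PICK1i against saline with all libraries, both lower, where 1.02% of all transcripts tested were lower and 0.977% higher. Each is annotated as a retained intron, Pam-205 (-1.03 ± 0.26, adjusted p = 0.0402) and Pcsk1-202 (-0.96 ± 0.26, 0.0480). None passed in the other 2 comparisons, in which edgeR called 0 transcripts of any gene and 2768 and 8092 had an unadjusted p under 0.05, nor in any comparison without saline replicates 2 and 3, when edgeR called 0 transcripts and 968 to 9165 had an unadjusted p under 0.05. Pcsk1-202 held 13.8 ± 2.50% of Pcsk1 counts after PSD-95i, 11.4 ± 2.43% after PICK1i and 13.8 ± 1.21% in the 6 saline libraries. Scg2-201 held 70.8 ± 1.61%, 69.0 ± 3.08% and 70.5 ± 1.23% of Scg2 counts in the same order. The group means of these shares, which were not tested, therefore stayed within a few percentage points of each other. For minor forms that can be a large part of the share. In the same order Pam-205 held 0.944 ± 0.155%, 0.586 ± 0.319% and 1.15 ± 0.179% of Pam counts, and Pam-211 held 2.34 ± 0.656%, 1.31 ± 0.612% and 1.86 ± 0.778%. Cpe, Scg3, Chga, Chgb and Pcsk1n have 1 transcript each in the table.

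The pathway around the 10 genes was read from lists of the same kind. Of 17 other convertases and trimming or modifying enzymes tested, 2 fell after PICK1i relative to saline with all libraries, near the 9.15% of all genes called there. They were the convertase Pcsk6 (-0.91 ± 0.22, adjusted p = 0.0210) and the endothelin-converting enzyme Ece1 (-0.42 ± 0.13, 0.0457). Without saline replicates 2 and 3 neither passed, and Pcsk6 was the 1 of 17 that was higher after PSD-95i than after PICK1i, as were 4.13% of all genes. It averaged 25.5 ± 3.12 CPM after PSD-95i and 19.9 ± 3.21 CPM after PICK1i (SD, n = 8 each; log2 fold change 0.35 ± 0.10, adjusted p = 0.0351). The glutaminyl cyclase gene Qpct came next (0.18 ± 0.06, 0.0557). Of 14 enzymes that degrade neuropeptides, Enpep alone passed, also a share near that of all genes. It was lower after PICK1i than in saline with all libraries (-0.86 ± 0.28, adjusted p = 0.0482), followed by Anpep (-0.91 ± 0.32, 0.0659). Without saline replicates 2 and 3 Prep, prolyl endopeptidase, had the smallest p of the 14, at -0.22 ± 0.07 for PICK1i against saline (0.0845) and 0.21 ± 0.07 between the compounds (0.0544).

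Of 38 tested genes for the formation, cargo and release of dense-core vesicles, 3 rose and 5 fell after PICK1i relative to saline with all libraries. Of all genes tested, 4.88% rose and 4.27% fell there. None of the 38 passed without saline replicates 2 and 3. With all libraries the vesicle-docking genes Sytl4 (-0.59 ± 0.13, adjusted p = 0.0181) and Rab3a (0.37 ± 0.09, 0.0234) had the smallest p, followed by Ccdc186 (-0.34 ± 0.10, 0.0283), a gene of vesicle maturation, and Unc13a (0.23 ± 0.07, 0.0314). In PSD-95i against PICK1i without those libraries 4 were higher and 2 lower, beside 4.13% and 3.5% of all genes. Ptprn2, a vesicle membrane protein of the IA-2 family, averaged 246 ± 22.6 CPM after PSD-95i and 167 ± 62.5 CPM after PICK1i (0.55 ± 0.15, adjusted p = 0.0351), and Sytl4, granuphilin, 44.7 ± 3.91 CPM after PSD-95i and 32.97 ± 7.97 CPM after PICK1i (0.42 ± 0.11, 0.0351). The priming factor gene Unc13a was lower, at 236 ± 9.79 CPM after PSD-95i and 274 ± 31.4 CPM after PICK1i (-0.21 ± 0.06, 0.0387). Pick1, which encodes the protein that PICK1i binds and takes part in vesicle formation, was also lower, with 60.9 ± 2.50 CPM after PSD-95i and 71.5 ± 10.2 CPM after PICK1i (-0.22 ± 0.07, 0.0435).

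Among 36 tested precursors of neuropeptides and hormones, the substrates of these enzymes, 2 rose and 1 fell after PICK1i relative to saline with all libraries, a share near the 9.15% of all genes. Penk, the enkephalin precursor, was at 0.39 ± 0.09 (adjusted p = 0.0198), Tac2, the neurokinin B precursor, at 0.48 ± 0.12 (0.0231), and Pomc at -5.02 ± 1.06 (0.0181). Pomc stood at 13842 and 17003 CPM in saline replicates 2 and 3 and at no more than 228 CPM elsewhere. Without these libraries none of 37 passed, Penk being at 0.28 ± 0.08 (adjusted p = 0.0735). In PSD-95i against PICK1i Penk was lower after PSD-95i, at 111 ± 9.80 CPM against 140 ± 20.1 CPM after PICK1i (-0.33 ± 0.08, adjusted p = 0.0324), and so was Adm (-0.89 ± 0.27, 0.0456), the adrenomedullin precursor, at 0.853 CPM after PSD-95i and 1.62 CPM after PICK1i. The differences between the compounds named in these lists come from the fit without saline replicates 2 and 3, in which no gene passed once PICK1i replicates 1, 2, 5 and 6 were left out or the length tilt was added, and 1 to 4 genes in 8 of the 16 fits without 1 further library. For PSD-95i against saline none of the genes of these 4 lists passed in edgeR, with 3 convertases and related enzymes, 6 vesicle genes, 1 degrading enzyme and 4 precursors at an unadjusted p under 0.05 with all libraries, and 0, 0, 0 and 2 without saline replicates 2 and 3. The 2 precursors were Nmb (-0.57 ± 0.20, adjusted p = 1.00) and Npff (0.45 ± 0.18, adjusted p = 1.00), each under 3 CPM on average.

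As a description of which genes varied most like the 10, profiles over the 22 libraries were correlated with the mean standardized profile of the set, among 12634 genes with a mean of 5 CPM or more. Among the 10 most alike were Eid2b (Pearson r = 0.82), Bsx (0.82), a hypothalamic homeobox gene, Akirin1 (0.80), Eif3b (0.79), Gpr27 (0.79), the histamine receptor gene Hrh3 (0.78), Sox1 (0.78), Zfp449 (0.78) and B430305J03Rik (0.76). None of the 10 most alike was in the corresponding list from all 24 libraries. The 10 genes did not share one profile: Pam was at r = 0.68 with the mean of the set and Cpe at 0.66, while Chga was at 0.03 and Scg5 at -0.19. Taken one at a time, the most alike genes were Il6st for Pam (0.95), Zwint for Scg2 (0.95), Slc39a12 for Pcsk2 (0.95), Ago2 for Pcsk1 (0.93), Rpl14 for Scg5 (0.91), Ptpn23 for Chga (0.90), Abhd8 for Cpe (0.88), Lor for Pcsk1n (0.87), Ywhab for Scg3 (0.86) and Arglu1 for Chgb (0.78). These values share library depth, tissue makeup and length tilt, and no p-value is attached to them.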

How the data were processed

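Estimated counts, without normalisation, were deposited by the authors for genes and for transcripts. Per the submitters' processing notes these come from bcl2fastq 2.20.0, STAR and Salmon with GRCm38; further versions, options, annotation and strand setting: not given in the sources used here. Per the labels' protocols, poly-A RNA was made into stranded libraries and read as 52-base pairs. Estimated counts were rounded and fitted in edgeR 4.0.16 (R 4.3.3, limma 3.58.1): TMM scaling, a filter at a minimum count of 10, a quasi-likelihood test with 3 groups in 1 fit, and Benjamini-Hochberg adjustment over all genes tested at 0.05. The fit was tested on simulated counts. CPM are TMM-scaled. TPM were computed from transcript counts and GENCODE M21 lengths (45143 of 45706 gene identifiers found), without fragment-length correction. Transcripts were tested the same way, and DESeq2 1.42.0 and limma-voom were alternatives. The 84 replicate pairs held 0 identical libraries. Labels gave groups and replicate numbers; numbers did not pair libraries.

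The 10 genes and the lists were chosen with earlier results of these data known. Genes named outside the 10 are, of each list, up to 4 past the test with the smallest p (where fewer than 2 passed, from the 2 smallest), and the most alike profiles; some items are not reported here. Members are in the gene table as Pcsk1 ENSMUSG00000021587, Pcsk2 ENSMUSG00000027419, Cpe ENSMUSG00000037852, Pam ENSMUSG00000026335, Scg2 ENSMUSG00000050711, Scg3 ENSMUSG00000032181, Scg5 ENSMUSG00000023236, Chga ENSMUSG00000021194, Chgb ENSMUSG00000027350 and Pcsk1n ENSMUSG00000039278. Their GRCm38 positions are chromosome 13, 75089826 to 75134861; 2, 143546156 to 143816285; 8, 64592542 to 64693054; 1, 97795114 to 98095646; 1, 79434669 to 79440120; 9, 75643189 to 75684056; 2, 113776362 to 113829121; 12, 102554969 to 102565028; 2, 132781278 to 132795079; and X, 7919822 to 7924410, in that order.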

Additional observations from a re-analysis of the deposited data

Results flagged for a closer look

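Cpe in PSD-95i replicate 8 stood at 1479.8 CPM, below the other PSD-95i libraries by a gap that exceeded Dixon's 95% critical value. Pcsk2 in saline replicate 7 stood at 249 CPM, likewise low among the 6 saline libraries without replicates 2 and 3. These were 2 cases among 40 groups examined, and chance gives about 1 in 20.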

How the results depend on the processing

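For PICK1i against saline 1434 genes and 4 of the 10 passed. The counts were 1975 genes and 5 of the 10 in DESeq2, 1506 and 5 with a minimum count of 50 and 1050 and 3 with no filter. They moved further to 316 genes and 1 of the 10 in limma-voom with neighbouring library numbers as a random block, 3 and 0 with library weights, 0 and 0 with only the 2 groups, 5 and 0 without saline replicates 2 and 3, 0 and 0 without PICK1i replicates 1, 2, 5 and 6 or without all 6 libraries, and 2 and 0 with the length tilt as a covariate. With the replicate number as a block 1127 genes and 1 of the 10 (Pam) passed, and 0 member transcripts. The numbers did not pair libraries: 5 of 24 same-numbered pairs had a correlation over 0.1, and 1 library correlated best with its own number. Member transcripts past the test were 2, and 0 without saline replicates 2 and 3. Between the compounds 0 genes passed, but 665 with a minimum count of 50, 436 with library weights, 1336 in DESeq2 and 1208 without saline replicates 2 and 3, each with 1 of the 10; it was 0 without PICK1i replicates 1, 2, 5 and 6, without all 6 libraries, and with the tilt in either set. Leaving out 1 library gave 299 (without PICK1i replicate 5) to 2757 genes (without PICK1i replicate 7) and 0 to 5 of the 10 for PICK1i against saline, and 0 to 2315 genes and 0 to 1 of the 10 between the compounds; without saline replicates 2 and 3 as well, the compounds gave 1 to 3451 genes and 0 to 5 of the 10. For PSD-95i against saline no setting called a gene or a member transcript; with no filter 1 other transcript was higher and 66 lower. Of the most alike profiles, 0 were shared with the list from all libraries.

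Log2 fold changes on the other side of 0 follow by comparison. For PSD-95i and saline, without saline replicates 2 and 3 Pcsk1 was 0.0088, Pcsk2 0.050, Scg2 0.053, Scg3 0.016, Chga 0.069 and Chgb 0.037. Without all 6 libraries Pcsk1 was 0.0076, Pcsk2 0.050, Scg2 0.053, Scg3 0.016, Chga 0.068 and Chgb 0.037. With library weights Pcsk2 was 0.012 and Scg3 0.0012. With the tilt and without saline replicates 2 and 3 Pcsk2 was 0.030, Scg2 0.037, Scg3 0.012, Scg5 0.0044, Chga 0.081 and Chgb 0.037. With a minimum count of 50 Pam was -0.0093. With 2 groups Pam was -0.00015. With the tilt and all libraries Pam was -0.025. With 1 library left out, from all 24 or from the 22, Pcsk1 ran from -0.63 to 0.040, Pcsk2 -0.23 to 0.063, Pam -0.024 to 0.10, Scg2 -0.32 to 0.068, Scg3 -0.10 to 0.038, Scg5 -0.37 to 0.012, Chga -0.67 to 0.091 and Chgb -1.49 to 0.053. For PICK1i and saline, without all 6 libraries Pcsk1 was 0.0035, Scg2 0.042, Scg3 0.067, Scg5 0.049, Chga 0.11 and Chgb 0.064. With the tilt and without saline replicates 2 and 3 Pcsk2 was 0.022, Scg3 0.068, Scg5 0.015, Chga 0.087 and Chgb 0.050. With library weights Cpe was -0.0016, Scg3 0.032, Scg5 0.067 and Chga 0.12. Without saline replicates 2 and 3 Cpe was -0.036, Scg3 0.026, Scg5 0.14, Chga 0.21 and Chgb 0.051. With 1 library left out, from all 24 or from the 22, Cpe ran from -0.064 to 0.064, Scg3 -0.093 to 0.052, Scg5 -0.22 to 0.16, Chga -0.52 to 0.25 and Chgb -1.48 to 0.071. For PSD-95i and PICK1i, with the tilt and without saline replicates 2 and 3 Pcsk1 was -0.0021 and Pcsk1n 0.0063. With the tilt and all libraries Cpe was -0.00013, Scg5 0.073, Chga 0.15, Chgb 0.27 and Pcsk1n 0.017. With 1 library left out, from all 24 or from the 22, Scg3 ran from -0.037 to 0.0031, Chgb -0.035 to 0.0035 and Pcsk1n -0.058 to 0.039. The causes were not tested.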
